A study of Mus musculus with 12 samples.

Results

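The nuclear genes of respiratory chain complexes III to V were examined in colon RNA of mice with dextran sulfate sodium (DSS) colitis, with and without ursolic acid (UA). The set holds the protein-coding genes whose symbol starts with Uqcr, Cyc1, Atp5 or with Cox4 to Cox8 and that had at least 10 raw counts summed over the 12 libraries. It came to 42 of the 54532 genes in each file, with 9 genes of complex III, 16 of complex IV and 17 of complex V. A further 3 genes with such symbols (Cox7b2, Cox8c and a second Atp5o gene, ENSMUSG00000116933) had 0 counts in every library and were not members. The subunits encoded by mitochondrial DNA were not part of the set.

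Each group held 3 libraries from the colon of male C57BL/6 mice, which were 6 weeks old before 1 week of adaptation. The Con group received no DSS, and the labels call it untreated where the methods describe gavage of the vehicle. The DSS group drank 3% (w/v) DSS, which injures the colon epithelium, for 5 days and received the vehicle. The UA+DSS and DSS+UA groups (labelled UA DSS and DSS UA) drank the same DSS and received UA, a plant triterpenoid, at 200 mg/kg by daily gavage. In UA+DSS the gavage began 1 day before DSS and went on for 7 days, so that it also covered the days of DSS, and in DSS+UA it began 3 days after the start of DSS and went on for 4 days. These lengths are those of the methods, and the paper's discussion gives more days of UA for both groups. The stretch of colon that was taken is not given in the labels, and each library is bulk tissue, in which fewer cells of a type and less RNA per cell cannot be told apart.

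Complex III passes electrons from ubiquinol to cytochrome c, complex IV passes them from cytochrome c to oxygen, and both pump protons across the inner mitochondrial membrane. Complex V, the ATP synthase, lets the protons flow back and makes ATP. The mature colonocyte is known for a heavy reliance on this pathway, since it oxidizes butyrate from the gut bacteria. Several subunits of complex IV exist in a common form and in a form made mainly in heart and skeletal muscle, testis or lung, which is why members such as Cox7a1 were kept apart from their partners.

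Promoters of such genes often carry sites for the factors NRF1, the ETS factor GABP, YY1 and the estrogen-related receptors (ERR). Windows of 250 bases before to 50 after the start were found for 32 of the 42 members among RefSeq promoters of 27025 genes (GRCm38.p6). Letters were searched on both strands, and a match is a description of the letters and not a binding site. The NRF1 letters (GCGC, any base, then TGCGC) stood in 25.0% of the member promoters (8 of 32) and in 5.19% of all genes. The ETS letters CCGGAAG stood in 31.3% (10 members) against 9.93%, the YY1 letters AANATGGCG in 9.38% (3 members) against 2.76%, and the ERR letters TNAAGGTCA in 3.13% (1 member, Atp5g3) against 1.43%. The TATA letters TATAAA stood in 6.25% of the members (Atp5l and Cox8b) and in 15.7% of all genes. No entry was matched for Atp5a1, Atp5mpl, Cox4i1, Cox4i2, Cox6a2, Cox6c, Cyc1, Uqcrb, Uqcrc2 and Uqcrq.

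The stretches before exon 1 are shown for 4 members on which the results below turn, with matches to these letters in capitals. Atp5g3 (chr2:73911327-73911456, minus strand) held the ERR letters on the opposite strand, 52 to 44 bases before the start. Cox6a1 (chr5:115348982-115349129, minus strand) held the NRF1 letters 2 times, at 162 to 153 and, on the opposite strand, at 117 to 108 bases before the start. Each of these windows held a further match outside the stretch shown, of the NRF1 letters after the start in Atp5g3 and of the ETS letters 16 to 10 bases before it in Cox6a1. Cox7a1 (chr7:30184041-30184143, plus strand) and Cox7a2 (chr9:79759879-79759983, minus strand), the muscle and the common form of 1 subunit, held none of the 5 sets of letters in their windows.
Atp5g3: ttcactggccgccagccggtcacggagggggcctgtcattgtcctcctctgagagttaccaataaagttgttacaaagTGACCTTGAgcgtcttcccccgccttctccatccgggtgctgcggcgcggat
Cox6a1: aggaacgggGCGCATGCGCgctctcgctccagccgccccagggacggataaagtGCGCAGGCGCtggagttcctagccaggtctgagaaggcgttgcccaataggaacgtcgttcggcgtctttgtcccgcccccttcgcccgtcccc
Cox7a1: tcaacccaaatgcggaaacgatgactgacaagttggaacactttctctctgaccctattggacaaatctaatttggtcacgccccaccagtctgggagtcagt
Cox7a2: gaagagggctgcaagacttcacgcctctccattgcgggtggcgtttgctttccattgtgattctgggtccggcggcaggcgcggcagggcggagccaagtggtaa

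Values are counts per 1000000 counts of a library (CPM) after scaling by TMM factors, and a log2 fold change is given with its standard error (SE) from 1 fit of all 12 libraries. Total counts were 15566216 to 19498383 per library. A member was called changed when its p from edgeR's quasi-likelihood test, adjusted by the Benjamini-Hochberg method over the 17658 tested genes, was under 0.05. Of the 42 members 40 were tested, and Cox6a2 and Cox8b were too low. Libraries DSS 2 and DSS+UA 2 stood apart in the members. DSS 2 (replicate 2 of the DSS group) was the lowest of the 12 libraries for 37 of the 40 tested members, and DSS+UA 2 was the highest for 35. In DSS 2 the 10 leukocyte markers summed to 16477 CPM, against 1614 to 2149 in the other DSS libraries. Results are therefore also given without these libraries. The replicates are separate colon tissues by the methods, and the labels do not say more of them.

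Summed over each complex, the members were lowest in the DSS group. Complex III summed to 2557, 2964 and 2381 CPM in Con 1 to 3 and to 2033, 1349 and 2070 CPM in DSS 1 to 3. Complex IV summed to 4872, 4955 and 3792 CPM in Con and to 3005, 2015 and 2848 CPM in DSS. Complex V summed to 6422, 7747 and 6520 CPM in Con and to 6029, 3805 and 6153 CPM in DSS. In all 3 complexes the DSS libraries lay below each Con library, with the smallest gap in complex V. In UA+DSS the sums were 2710 ± 170, 4596 ± 705 and 7515 ± 449 CPM for complexes III, IV and V (SD, n = 3), close to the Con means of 2634 ± 299, 4540 ± 648 and 6896 ± 738 CPM. In DSS+UA they were 3292 ± 678, 5310 ± 1790 and 9506 ± 1783 CPM. The wide spread of DSS+UA came with DSS+UA 2, at 4025, 7315 and 11375 CPM, where DSS+UA 1 had 2687, 3873 and 7824 CPM and DSS+UA 3 had 3164, 4743 and 9320 CPM.

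**Figure D1:**
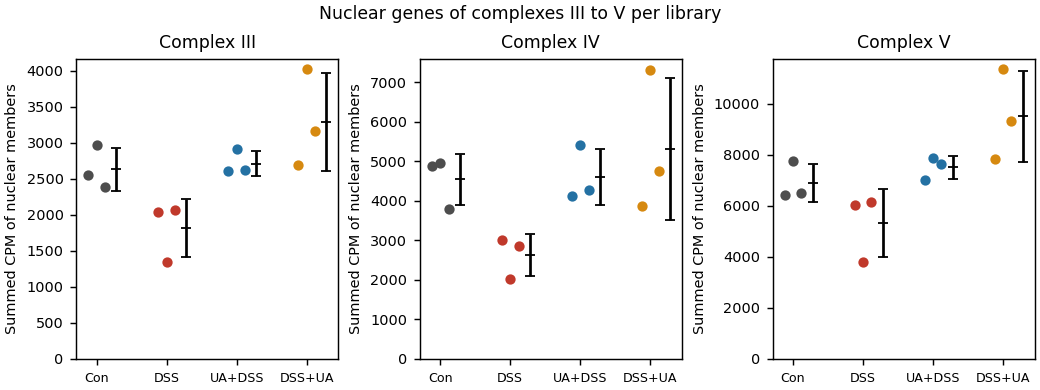
Summed CPM of the nuclear members of complex III, IV and V (vertical axes, from 0) in each of the 12 libraries, as points by group, with the group mean and SD (n = 3) as bars beside them. The 3 DSS points are below all points of the other groups in each panel, and DSS+UA 2 is the highest point.

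Between genes, levels were compared as mean CPM of the 12 libraries per kilobase of transcript. The most abundant members were Cox6a1 at 1093, Cox4i1 at 996, Atp5b (the catalytic beta subunit of ATP synthase) at 978 and Cox8a at 971 CPM per kilobase. In complex III the highest were Uqcrh, the hinge protein, at 600.4 and Uqcr10 at 596 CPM per kilobase. The muscle form Cox7a1 stood at 49.4, and below it were Atp5g1 at 44.2, which rests on a transcript of 4715 bases, Atp5s at 8.20, the testis form Cox6b2 at 7.26, Cox4i2 at 2.13, Cox8b at 0.900 and Cox6a2 at 0.495 CPM per kilobase. The common forms of complex IV subunits were thus far above their tissue-restricted partners in these colons.

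The comparison of DSS with Con asked what the colitis did to the members. DSS lowered 14 of the 40 tested members and raised 0 (23 at an unadjusted p under 0.05). Of all tested genes 26.5% were called, 12.6% as lowered and 13.9% as raised. All 40 log2 fold changes were negative, with a median of -0.66 (range -2.10 to -0.16) beside a median of -0.034 over all tested genes. For 29 members every DSS library lay below every Con library, and 20.1% of all tested genes were lower without overlap. DESeq2 called 18 members (5712 of all 17658 genes) and limma-voom 15 (4607), where edgeR called 4688. By complex the lowered members were 2 of 9 in complex III, 7 of 14 in complex IV and 5 of 17 in complex V.

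In complex III the members called were Uqcrb and Uqcrh, small subunits around the catalytic core. Uqcrb (ENSMUSG00000021520, chr13:66900617-66905378) had 237, 255 and 218 CPM in Con 1 to 3 while DSS 1 to 3 had 140.1, 94.8 and 153 CPM. Its groups did not overlap, and it fell by 0.87 on the log2 scale (SE 0.22, edgeR adjusted p = 0.0167), a call that ended only without Con 2 (adjusted p = 0.0549). Uqcrh fell by 0.84 (SE 0.27, edgeR adjusted p = 0.0401). The subunits that carry the electrons were not called. Cyc1, which holds the heme of cytochrome c1, had 273, 412 and 308 CPM in Con while DSS had 291, 183 and 303 CPM (log2 fold change -0.35, SE 0.22, edgeR adjusted p = 0.252). Uqcrfs1, the Rieske iron-sulfur protein, had 306, 466 and 342 CPM in Con while DSS had 254, 181 and 307 CPM (log2 fold change -0.59, SE 0.23, edgeR adjusted p = 0.0783). Uqcrc1, a large core protein, had 288, 387 and 330 CPM in Con while DSS had 318, 193 and 319 CPM (log2 fold change -0.28, SE 0.21, edgeR adjusted p = 0.349). For these 3 the groups overlapped, and DSS 2 was the lowest library. The 7 uncalled members of complex III, with Uqcrc2, Uqcrq, Uqcr10 and Uqcr11, had log2 fold changes of -0.73 to -0.28.

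In complex IV the lowered members were Cox7a1, Cox6c, Cox7b, Cox6a1, Cox8a, Cox5b and Cox7a2, all small nuclear subunits around the mitochondrially encoded core. Cox7a1 (ENSMUSG00000074218, chr7:30184144-30186078), the muscle form of subunit VIIa, had 38.2, 30.6 and 18.6 CPM in Con 1 to 3 while DSS 1 to 3 had 6.98, 5.16 and 8.24 CPM. Each Con library was above each DSS library. It fell by 2.10 on the log2 scale (SE 0.44, edgeR adjusted p = 0.00763), to 0.233 of the Con level, the smallest p and the largest change of all tested members. The call held without each of the 12 libraries in turn and under each of the 10 other settings tried, with adjusted p of 4.88e-05 to 0.0263 over them. Cox7a2 (ENSMUSG00000032330, chr9:79755361-79759878), the common form, had 257, 248 and 200.1 CPM in Con while DSS had 155, 102 and 147 CPM, again without overlap. It fell by 0.80 (SE 0.26, edgeR adjusted p = 0.0406), and its call ended without any Con library but Con 3, without any DSS library, and without UA+DSS 1, 2 or 3 or DSS+UA 3. Cox6a1 (ENSMUSG00000041697, chr5:115345642-115348981), the liver form of subunit VIa, had 662, 790.3 and 603 CPM in Con while DSS had 384, 283 and 430.4 CPM. It fell by 0.91 (SE 0.25, edgeR adjusted p = 0.0220), and the call ended without Con 2, DSS 1 or DSS 2. In Con Cox7b stood at 405, 404 and 299 CPM and in DSS at 212, 129 and 210.0 CPM, and Cox8a at 609.9, 629 and 484 CPM against 344, 246 and 349 CPM. Both were lower in each DSS library. Cox6c fell by 1.13, Cox7b by 1.01, Cox8a by 0.88 and Cox5b, which binds zinc, by 0.83 (edgeR adjusted p = 0.0210, 0.0224, 0.0334 and 0.0339). Of those not called, Cox4i1, the subunit that binds ATP as a regulator of the enzyme, had 829, 819 and 594 CPM in Con while DSS had 573, 371 and 489 CPM without overlap (log2 fold change -0.65, SE 0.28, edgeR adjusted p = 0.112). The 7 members of complex IV without a call, which also include Cox5a, Cox6b1, Cox7c and the supercomplex factor Cox7a2l, had log2 fold changes of -0.96 to -0.32.

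In complex V the lowered members were Atp5s, Atp5j, Atp5h, Atp5j2 and Atp5o. Atp5s (ENSMUSG00000054894, chr12:69724950-69744660), coupling factor B, which is not a core subunit of the synthase, had 21.5, 17.5 and 13.0 CPM in Con 1 to 3 while DSS 1 to 3 had 5.97, 5.06 and 11.6 CPM. DSS 3 came near the lowest Con library, without overlap. Atp5s fell by 1.20 (SE 0.31, edgeR adjusted p = 0.0173), a call that ended without Con 1, DSS 1 or DSS 2. Atp5j (F6), Atp5h (d) and Atp5o (the oligomycin sensitivity protein) of the stator stalk fell by 0.74, 0.72 and 0.70, and Atp5j2 (f) of the membrane part by 0.85 (edgeR adjusted p = 0.0265, 0.0310, 0.0460 and 0.0384). The large subunits of the catalytic head had the smallest differences among the tested members. Atp5b had 1142, 2034 and 1745 CPM in Con while DSS had 1560, 970 and 1771 CPM (log2 fold change -0.19, SE 0.28, edgeR adjusted p = 0.636). Atp5a1, the alpha subunit, had 1011, 1556 and 1361 CPM in Con while DSS had 1299, 749 and 1479 CPM (log2 fold change -0.16, SE 0.27, edgeR adjusted p = 0.688). In both the 2 groups overlapped widely, with Con 1 below 2 of the 3 DSS libraries. The 12 uncalled members of complex V had log2 fold changes of -0.67 to -0.16, those of the c subunit genes Atp5g1, Atp5g2 and Atp5g3 being -0.40, -0.35 and -0.25 (edgeR adjusted p = 0.194, 0.244 and 0.355).

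The number of members lowered by DSS depended on single libraries. It was 3 without Con 1, 2 without Con 2 and 2 without DSS 2, 6 without DSS 1, 9 without DSS 3 and 15 without Con 3. Over all genes 3891, 2894 and 3484 were called without Con 1, Con 2 and DSS 2. The 2 called without DSS 2 were Cox7a1 (log2 fold change -1.94, edgeR adjusted p = 0.0263) and Uqcrb (-0.69, edgeR adjusted p = 0.0485). Without DSS 2 the median log2 fold change of the members was -0.51.

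**Figure D2:**
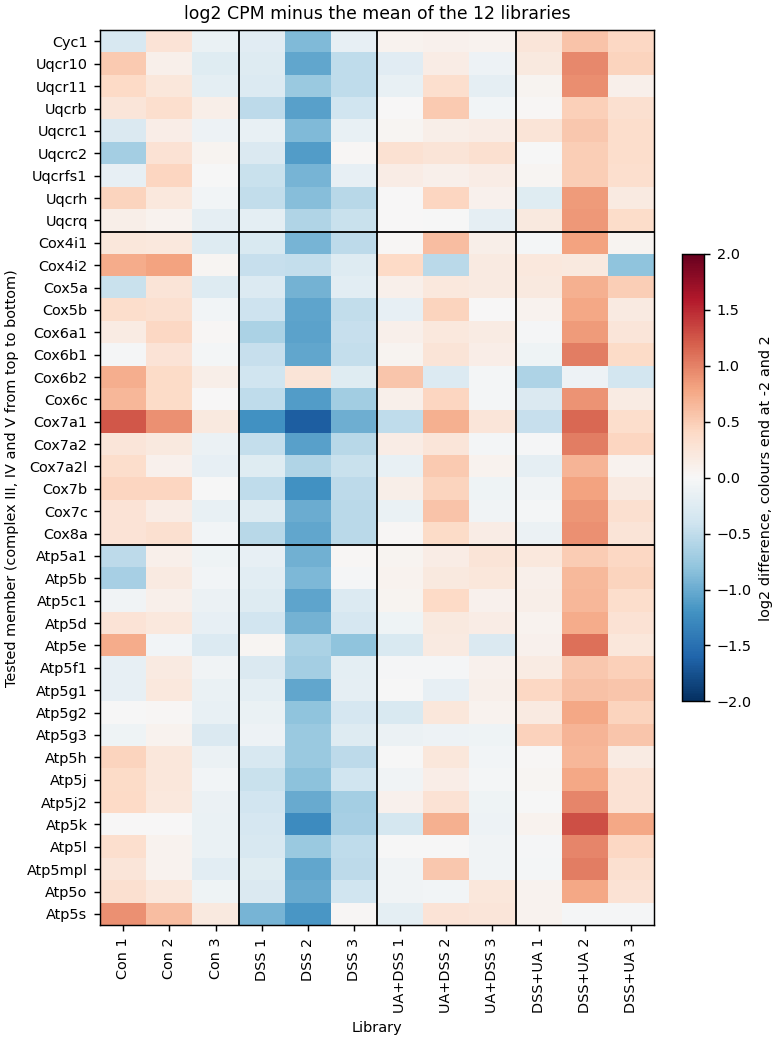
Colours show log2 CPM of each of the 40 tested members (rows, by complex) minus its mean over the 12 libraries (columns, by group), from blue (lower) to red (higher). DSS 2 is the bluest column and DSS+UA 2 the reddest, and the deepest blue of all cells is that of Cox7a1 in DSS 2.

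The comparison of UA+DSS with DSS asked how the members differed when UA was begun before DSS and continued through it. UA+DSS had 6 members raised over DSS and 0 lowered (25 at an unadjusted p under 0.05). Of all tested genes 18.7% were called, 8.21% as raised and 10.5% as lowered. All 40 log2 fold changes were positive, with a median of 0.61 (range 0.22 to 1.48) beside a median of -0.019 over all tested genes. The groups did not overlap for 33 members, all higher in UA+DSS, where 21.1% of all tested genes were higher without overlap. Called were 1 of 9 in complex III, 5 of 14 in complex IV and 0 of 17 in complex V, where the smallest adjusted p was 0.0662 by edgeR. DESeq2 called 15 members (4497 of all 17658 genes) and limma-voom 8 (3082), where edgeR called 3300 genes. The comparison shares the DSS libraries with the one before, so opposite signs in both are not independent of each other.

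The 6 raised members were Uqcrb, Cox6a1, Cox7a1, Cox8a, Cox7b and Cox7a2. Uqcrb had 203, 289 and 193 CPM in UA+DSS 1 to 3 and rose by 0.82 over DSS (SE 0.22, edgeR adjusted p = 0.0293). Cox6a1 had 639, 684 and 666 CPM in UA+DSS and rose by 0.86 (SE 0.25, edgeR adjusted p = 0.0358). Cox7a1 had 11.4, 26.4 and 19.0 CPM in UA+DSS and rose by 1.48 (SE 0.43, edgeR adjusted p = 0.0378). All UA+DSS libraries were above all DSS libraries for these members, with Cox6a1 the most even and Cox7a1 the most uneven of the 3 within UA+DSS. Cox8a stood at 512, 658 and 560.2 CPM, Cox7b at 326, 408 and 283 CPM and Cox7a2 at 239.9, 257 and 211 CPM in UA+DSS. These also lay above each DSS library. Cox8a and Cox7b rose by 0.88 each and Cox7a2 by 0.81 (edgeR adjusted p = 0.0417, 0.0463 and 0.0496). The 9 uncalled members of complex IV had log2 fold changes of 0.22 to 0.93 and the 17 of complex V 0.24 to 0.86. In complex V Atp5a1 had 1504, 1610 and 1736 CPM and Atp5b 1890, 2061 and 2122 CPM in UA+DSS, above each DSS library, the log2 fold changes being 0.46 and 0.50 (SE 0.27 and 0.29) and edgeR adjusted p of 0.251 and 0.242. The core members of complex III also lay above each DSS library without a call. Cyc1 had 358, 361 and 356 CPM, Uqcrfs1 383, 370.3 and 383 CPM and Uqcrc1 364, 386 and 394 CPM in UA+DSS 1 to 3, with edgeR adjusted p of 0.161, 0.0814 and 0.148.

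These calls were near the threshold. The number called was 0 without DSS 1, DSS 2 or UA+DSS 2, 1 without UA+DSS 3, 2 without UA+DSS 1 and 5 without DSS 3. Over all genes 1722, 1816 and 183 were called without DSS 1, DSS 2 and UA+DSS 2, fewer than the 3300 with all libraries. Without libraries of the other groups it was 2 without Con 2, 3 without Con 3, 7 without Con 1, and it was 1, 9 and 10 when DSS+UA 3, 1 or 2 was left out. Without DSS 2 the members' median log2 fold change was 0.43. With a score of position along the colon as a covariate, built from Hox genes as described at the end of the results, it was 0.77 and 0 members were called, as were 3 of all 17658 genes, so that the 0 is not particular to the members.

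The comparison of DSS+UA with DSS asked the same of UA begun 3 days after the start of DSS. DSS+UA had 23 members raised over DSS and 0 lowered (37 at an unadjusted p under 0.05). Of all tested genes 7.54% were called, 2.54% as raised and 5% as lowered. By complex these were 3 of 9 in complex III, 8 of 14 in complex IV and 12 of 17 in complex V. Of the 40 log2 fold changes 39 were positive, with a median of 0.93 (range -0.25 to 1.74) beside a median of 0.020 over all tested genes, and the testis form Cox6b2 was the exception at -0.25. The groups did not overlap for 36 members, all higher in DSS+UA, where 18.3% of all tested genes were higher without overlap. With the library size alone as the scaling factor, 14 members were raised with a median of 0.77, and the median of all genes was -0.11. DESeq2 called 34 members (3126 of all 17658 genes, 1233 of them raised) and limma-voom 23 (1152, with 399 raised), where edgeR called 1331 genes and 448 as raised. The DSS libraries are shared with both comparisons above.

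In complex V Atp5g3 (ENSMUSG00000018770, chr2:73908447-73911326), 1 of the 3 genes for the same c subunit of the proton-driven ring, had 742, 865 and 787 CPM in DSS+UA 1 to 3, where the DSS libraries 1 to 3 had 504, 322 and 450.3 CPM. It rose by 0.91 (SE 0.19, edgeR adjusted p = 0.0276). Its partners Atp5g1 and Atp5g2 rose by 0.94 and 0.88 (SE 0.22 each, edgeR adjusted p = 0.0351 and 0.0390). Atp5g1 had 175, 98.0 and 177 CPM in DSS, against 267, 302 and 295 CPM in DSS+UA,. Atp5g2 had 165, 104 and 144 CPM in DSS, against 205, 311 and 246 CPM in DSS+UA,. For all 3 genes each DSS+UA library was above each DSS library. Atp5k, subunit e of the membrane part, had 63.5, 33.5 and 50.8 CPM in DSS, against 84.1, 196 and 137 CPM in DSS+UA, and it rose by 1.50 (SE 0.35, edgeR adjusted p = 0.0341). The other called members of complex V were Atp5l, Atp5j2, Atp5o, Atp5j, Atp5d, Atp5c1, Atp5h and Atp5f1, of the stalks and the membrane part, with log2 fold changes of 0.77 to 1.14 (edgeR adjusted p = 0.0312 to 0.0466). Atp5a1, at 1680, 2074 and 1932 CPM in DSS+UA, and Atp5b, at 1941, 2815 and 2447 CPM, were above each DSS library but were not called (log2 fold changes 0.69 and 0.74, SE 0.27 and 0.29, edgeR adjusted p = 0.116 and 0.113).

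In complex IV Cox7a2 had 212, 437 and 292 CPM in DSS+UA 1 to 3 and rose by 1.22 over DSS (SE 0.26, edgeR adjusted p = 0.0267), the smallest p of the 40 members. Cox6a1 had 581, 1068 and 701 CPM and rose by 1.10 (SE 0.25, edgeR adjusted p = 0.0311). Cox6b1, on the side of the enzyme where cytochrome c docks, had 256, 547 and 354 CPM in DSS+UA, where the DSS libraries had 197, 131 and 195 CPM and rose by 1.15 (SE 0.27, edgeR adjusted p = 0.0333). Cox7a1 had 11.7, 35.9 and 20.7 CPM and rose by 1.74 (SE 0.44, edgeR adjusted p = 0.0403). For these 4 members the groups did not overlap, and DSS+UA 2 was the highest DSS+UA library throughout. In DSS+UA Cox8a stood at 463, 949 and 603 CPM and Cox7b at 286, 526 and 339 CPM. Cox8a, Cox7b, Cox5b and Cox5a rose by 1.10, 1.06, 1.00 and 0.92 (edgeR adjusted p = 0.0374, 0.0447, 0.0424 and 0.0451). In complex III Uqcrq (ENSMUSG00000044894, chr11:53427922-53430831), a small subunit, had 318, 509 and 357 CPM in DSS+UA, where the DSS libraries had 241, 183 and 205 CPM and rose by 0.91 (SE 0.20, edgeR adjusted p = 0.0295). Uqcr10 and Uqcrb rose by 1.14 and 0.93 (edgeR adjusted p = 0.0367 and 0.0366). Cyc1 had 400.0, 503 and 451 CPM, Uqcrfs1 355, 484 and 435 CPM and Uqcrc1 422, 516 and 453 CPM in DSS+UA. These 3 core members were above each DSS library with edgeR adjusted p of 0.0514, 0.0586 and 0.0548.

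The calls of this comparison rested on few libraries. The number called was 0 when DSS 2, DSS+UA 2 or DSS+UA 3 was left out, 12 without DSS 1, 17 without DSS 3 and 27 without DSS+UA 1. Over all genes 397, 142 and 25 were called without DSS 2, DSS+UA 2 and DSS+UA 3, of them 30, 0 and 0 as raised, so that the loss was shared by all genes. Without libraries of groups outside the comparison it was 3 without UA+DSS 3, 5 without UA+DSS 1, 7 without UA+DSS 2 and 14 without Con 2. With the position score as a covariate it was 0, beside 199 of all 17658 genes called and 28 raised, and in a fit of the 2 groups alone it was 0, beside 430 of 16420 genes called and 9 raised. The median log2 fold change of the members stayed at 0.67 to 1.06 when any 1 library was left out and was 0.92 with the position score.

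**Figure D3:**
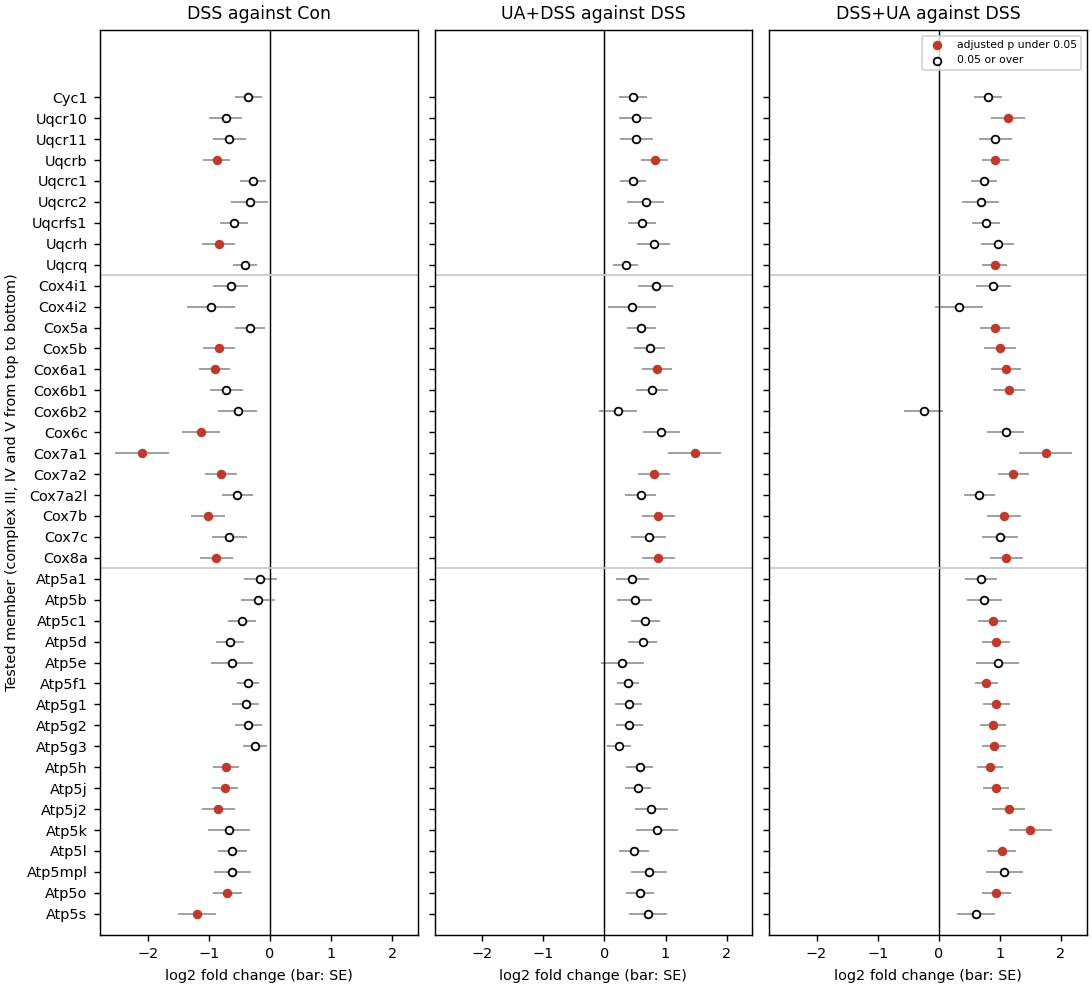
log2 fold changes (horizontal axis) with their SE for the 40 tested members, by complex from top to bottom, in the 3 comparisons with the DSS group. Filled red points passed the adjusted p of 0.05, which 14, 6 and 23 members did from left to right, and only Cox6b2 in the right panel lies against the direction of the other members.

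Of the 14 members lowered by DSS, 11 were among the 23 raised in DSS+UA against DSS, and 6 were also raised in UA+DSS against DSS. Since the 3 comparisons share the DSS libraries, these overlaps are counts only. A total of 14 members were called neither as lowered by DSS nor as raised in DSS+UA.

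Against Con, UA+DSS showed no called member (0 by edgeR, DESeq2 and limma-voom, and 0 at an unadjusted p under 0.05), and 0.00566% of all tested genes were called by edgeR, 376 genes by DESeq2 and 0 by limma-voom. The median log2 fold change of the members was -0.02 (range -0.62 to 0.34), and for all 40 the groups overlapped. Over all tested genes 9.62% were higher and 11% lower without overlap. Cox7a1 had the lowest value, -0.62 (SE 0.42, edgeR adjusted p = 0.553). In DSS+UA against Con 1 member was raised and 0 were lowered, beside 18.1% of all tested genes called, 9.13% as raised and 8.95% as lowered. This was Atp5g3, at 507, 567 and 443 CPM in Con 1 to 3 and above them in each DSS+UA library, which rose by 0.66 (SE 0.19, edgeR adjusted p = 0.0390). The call ended without any 1 library of Con, UA+DSS or DSS+UA. The members' median was 0.32 with 35 of 40 positive, beside a median of -0.028 over all tested genes. Without DSS+UA 2 the members' median was 0.061 with 22 of 40 positive. Of this comparison too, medians by coding length are given below, where short genes in general were also higher. There were 8 members higher and 2 lower (Cox6b2 and Atp5s) without overlap in all libraries, where 19.8% and 19.2% of all tested genes were. Those 8 were Atp5a1, Atp5g3, Atp5c1, Atp5g1, Atp5g2, Atp5k, Uqcrc1 and Uqcrq.

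Set directly against each other, UA+DSS had 1 member lower than DSS+UA and 0 higher, beside 16.8% of all tested genes called, 9.23% as lowered and 7.54% as higher. It was again Atp5g3, at 498, 504 and 507 CPM in UA+DSS 1 to 3, the most even group of all, which was lower by a log2 fold change of -0.67 (SE 0.19, edgeR adjusted p = 0.0389). The call ended without any 1 library of the 2 groups. The members' median was -0.28, beside a median of 0.014 over all tested genes. It was -0.074 without DSS+UA 2 and -0.11 with the position score for the members. Short genes in general were also lower in UA+DSS here, with the medians by coding length given below. In all libraries 7 members were lower in UA+DSS without overlap, where 22.5% of all tested genes were. The other 6 were Atp5f1, Uqcrc1, Cyc1, Uqcrq, Uqcr10 and Atp5g1.

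The proportions of the 3 c subunit genes lay close together in all groups. Atp5g3 gave 57.4 ± 1.28% of their summed counts in Con, 59.8 ± 1.54% in DSS, 57.0 ± 1.81% in UA+DSS and 59.6 ± 1.35% in DSS+UA (SD, n = 3). Atp5g1 gave 20.8 ± 2.15% to 22.5 ± 1.64%. All 50-base stretches of the Atp5g2 transcript used (441 bases) also occur in other genes, so its counts are uncertain. Of those genes Gm10175 shares the most stretches.

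Among the tissue-restricted forms of complex IV, the ratio of Cox7a1 to its common partner is given first, as a description with no test. Per 1000 counts of Cox7a2 there were 149, 124 and 92.7 counts of Cox7a1 in Con 1 to 3, and 45.0, 50.5 and 56.0 in DSS 1 to 3. In UA+DSS there were 47.6, 102.6 and 90.2, and in DSS+UA 55.1, 82.2 and 71.0. The Con libraries were thus above all DSS and DSS+UA libraries, the DSS libraries were even (50.5 ± 5.46), and UA+DSS spread from a value in the DSS range to one in the Con range. Cox4i2, the form made mainly in lung, had 2.43, 2.55 and 1.50 CPM in Con while DSS had 1.06, 1.05 and 1.21 CPM, without overlap. Its log2 fold change was -0.96 (SE 0.39, edgeR adjusted p = 0.0899). In UA+DSS it had 1.92, 1.00 and 1.65 CPM and in DSS+UA 1.69, 1.67 and 0.832 CPM, which overlapped both other groups.

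Cox6b2, the testis form of subunit VIb, had 6.41, 5.05 and 4.17 CPM in Con, 2.93, 4.61 and 3.28 CPM in DSS, 5.65, 3.19 and 3.78 CPM in UA+DSS, with 2.53, 3.59 and 2.99 CPM for DSS+UA. With Atp5s it was 1 of 2 members below each Con library in DSS+UA, with a log2 fold change of -0.78 for Cox6b2 against Con (SE 0.32, edgeR adjusted p = 0.101). Its partner Cox6b1 overlapped Con there. Per 1000 counts of Cox6b1 there were 18.5 ± 4.91 counts of Cox6b2 in Con, 22.3 ± 11.2 in DSS, 14.2 ± 5.28 in UA+DSS and 8.30 ± 1.67 in DSS+UA. The heart and muscle forms Cox6a2 and Cox8b were too low for the test. Cox6a2 had 3, 1 and 1 counts in Con, 21, 6 and 5 in DSS, 6, 3 and 4 in UA+DSS and 7, 16 and 1 in DSS+UA. The Con libraries were at the low end, and DSS+UA held values from the lowest to nearly the highest. Cox8b had 0 to 16 counts per library, and its count of 0 in DSS 2 allows up to 3 counts. No difference was tested for either gene at these counts.

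**Figure D4:**
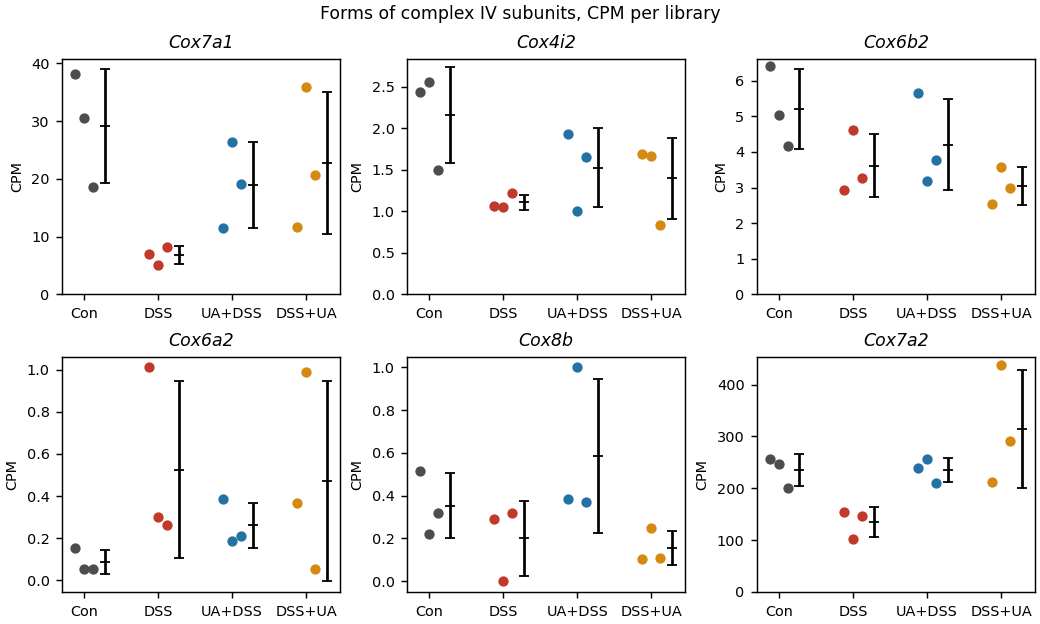
CPM per library (vertical axes, from 0 or just below) of 5 tissue-restricted forms of complex IV subunits and of the common form Cox7a2, by group, with the group mean and SD (n = 3) as bars beside the points. The 3 DSS points of Cox7a1 lie at 5.16 to 8.24 CPM, below all points of the other groups, while Cox6a2 and Cox8b stay at about 1 CPM or less.

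The 5 genes whose log2 CPM ran most like that of Cox7a1 over the 12 libraries were Hspb11, Smim20, Fam114a2, Pigyl and Mettl26, with Pearson r of 0.968, 0.967, 0.967, 0.965 and 0.960 (a description over 12 libraries that share the group differences). The first member was Cox6c in rank 10 (r = 0.951), followed by Uqcrh in rank 22 (r = 0.942). Smim20 is itself a small assembly factor of complex IV.

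The members differed by the length of their coding sequence, a split at 600 bases that was chosen after the values were seen. In DSS against Con the 30 short members had a median log2 fold change of -0.69 with 12 called, and the 10 long ones, which include Cyc1, Uqcrc1, Uqcrfs1, Atp5a1 and Atp5b, had -0.36 with 2 called (Atp5s and Atp5o). Over all tested protein-coding genes with an annotated coding length (1976 short and 12920 long), the medians were -0.079 for short and 0.030 for long coding sequences. In UA+DSS against DSS the members' medians were 0.67 (6 called) and 0.54 (0 called). In DSS+UA against DSS they were 0.96 (20 called) and 0.76 (3 called), where those of the same protein-coding genes were 0.29 and -0.020. In DSS+UA against Con the short members had a median of 0.27, close to the 0.26 of all short genes. The long members had 0.42 there, beside -0.019 for all long genes. In UA+DSS against DSS+UA the short members had -0.31, close to the -0.34 of all short genes. The long members had -0.24, beside 0.047 for all long genes. The ratio of the summed CPM of short to long members was 2.29, 1.47 and 1.37 in Con 1 to 3, 1.31, 1.42 and 1.08 in DSS, 1.34, 1.58 and 1.25 in UA+DSS and 1.32, 1.71 and 1.32 in DSS+UA. Con 1 stood far above the others and DSS+UA 2 next. Over the same protein-coding genes the short ones were also above the long ones in these libraries, by 0.21 (Con 1) and 0.41 (DSS+UA 2) in median deviation on the log2 scale, with -0.22 to 0.20 in the others. The part of this length difference in the members' results was not tested. Without Con 1 the log2 fold change of DSS against Con was -1.86 for Cox7a1 (SE 0.47, edgeR adjusted p = 0.0243), -0.93 for Cox6a1 (edgeR adjusted p = 0.0376) and -0.87 for Uqcrb (edgeR adjusted p = 0.0347).

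**Figure D5:**
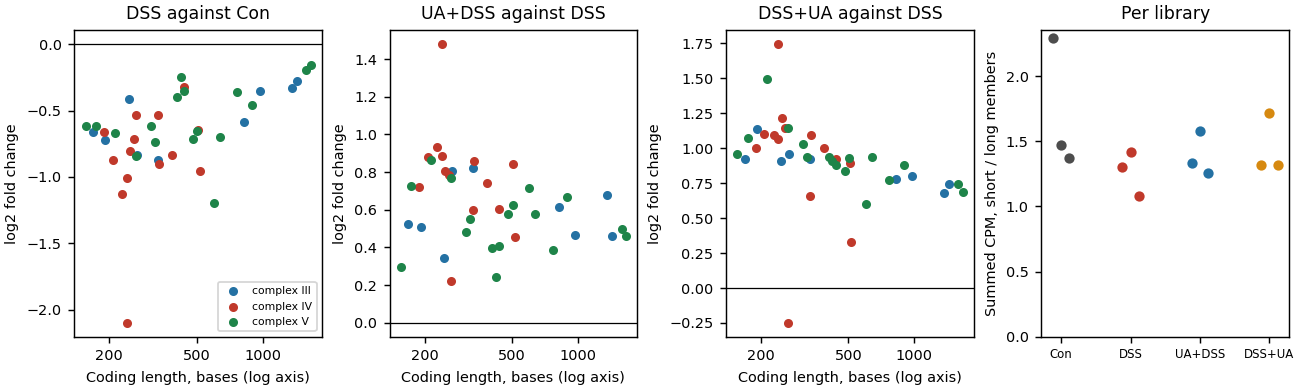
In the first 3 panels, log2 fold change (vertical axes, with different ranges) against coding length in bases (log axis) for the 40 tested members, coloured by complex. The last panel gives the ratio of summed CPM of short (under 600 bases) to long members in each library, where Con 1 is the highest at 2.29.

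Other genes of the pathway were taken from lists. Their counts stand beside all-gene shares of 12.6% lowered by DSS and of 8.21% and 2.54% raised in UA+DSS and DSS+UA over DSS, and for lists this short nothing is read from them beyond the genes named. Of 23 tested assembly factors of complex IV, DSS lowered 4 (Coa3, Surf1, Cmc1 and Higd2a), with Coa3 at 126 ± 15.5 CPM in Con and 79.8 ± 14.1 CPM in DSS (log2 fold change -0.65, edgeR adjusted p = 0.0181). UA+DSS raised Surf1 and Higd2a and lowered Cmc2, and DSS+UA raised Coa3, Cox14 and Cmc2. Surf1 helps to insert heme in the core, and it had a log2 fold change of 0.92 in UA+DSS against DSS (edgeR adjusted p = 0.0227). None of the 6 assembly factors of complex III was called in the 3 comparisons by edgeR's quasi-likelihood test. Of 4 genes for the assembly and control of complex V, Atpif1, the inhibitor that stops ATP synthase from running backwards, was called in all 3. It had 147 ± 27.0 CPM in Con, 66.7 ± 7.02 in DSS, 123 ± 10.1 in UA+DSS and 132 ± 28.5 in DSS+UA (SD, n = 3). It fell by 1.14 in DSS against Con (SE 0.19, edgeR adjusted p = 0.00352) and rose by 0.89 in UA+DSS and 0.98 in DSS+UA over DSS (SE 0.19 each, edgeR adjusted p = 0.0152 and 0.0219).

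Among 6 other genes of the respiratory chain (Sdha, Sdhb, Sdhc, Sdhd, Cycs and Ndufa4), DSS lowered 1. This was Sdhb, the iron-sulfur subunit of succinate dehydrogenase (log2 fold change -0.71, edgeR adjusted p = 0.0274). UA+DSS raised Sdhb, and DSS+UA raised Sdhb, Sdhc and Sdhd. Among 6 carriers that feed ATP synthase or cross the outer membrane, DSS lowered Vdac3 (fell by 1.00, edgeR adjusted p = 0.0123), UA+DSS raised it (1.04, edgeR adjusted p = 0.0169), and DSS+UA raised Vdac1, Vdac2 and the phosphate carrier Slc25a3. Of 11 regulators of such genes, DSS lowered Ppargc1a, Ppargc1b and Esrrg and raised Nrf1. Ppargc1a, the coactivator of mitochondrial gene programs, had 33.4 ± 3.69 CPM in Con, 8.51 ± 2.21 in DSS, 42.9 ± 26.5 in UA+DSS and 17.8 ± 3.22 in DSS+UA. It fell by 1.97 in DSS (SE 0.39, edgeR adjusted p = 0.00608) and rose by 2.33 in UA+DSS over DSS (SE 0.39, edgeR adjusted p = 0.00972), where Ppargc1b and Esrra also rose. In DSS+UA only Esrra, like Esrrg an estrogen-related receptor, was called among the 11, by edgeR (0.77, SE 0.19, edgeR adjusted p = 0.0374). The part of these receptors in the values of any member was not tested.

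Markers of cell types moved with the groups, and their part in the members' results was not tested. The 10 colonocyte markers, all detected, summed to 11090 to 20187 CPM in Con, 6093 to 11431 in DSS, 18407 to 21365 in UA+DSS and 12530 to 18655 in DSS+UA, and DSS lowered 2 of them. UA+DSS raised 4 and DSS+UA 2 over DSS. The 10 leukocyte markers summed to 143 to 355 CPM in Con, 1614 to 16477 in DSS, 302 to 565 in UA+DSS and 990 to 1038 in DSS+UA, with 10 raised by DSS. The 6 fibroblast markers summed to 1068 to 1825 CPM in Con, 3197 to 6930 in DSS, 609 to 1636 in UA+DSS and 949 to 2340 in DSS+UA, with 5 raised by DSS. For the muscle form Cox7a1, the 10 smooth muscle markers are of interest, and they summed to 1396 to 4233 CPM in Con, 856 to 1830 in DSS, 1500.0 to 2941 in UA+DSS and 573 to 1090 in DSS+UA. Of these 10 markers, 0 had a positive log2 fold change in DSS against Con (median -0.87) and 10 in UA+DSS against DSS (median 0.79). In DSS+UA against DSS 0 were positive (median -0.80), and 0 were called in any of these comparisons. The DSS+UA sums lay below those of Con without overlap (5 of 10 markers lowered), and Cox7a1 overlapped between these groups. The part of smooth muscle in the values of Cox7a1 was not tested. The 10 skeletal muscle markers summed to 11.3 to 33.5 CPM in all libraries. The 8 fat markers summed to 54.6 to 89.4 CPM in Con and 82.7 to 244 in DSS. They summed to 64.5 to 196 CPM in UA+DSS and 39.3 to 80.7 in DSS+UA, with Ucp1, the defining marker of brown fat, at 0 throughout. The 8 pericyte markers summed to 196 to 466 CPM in Con and 344 to 519 in DSS. Their sums were 338 to 438 CPM in UA+DSS and 116 to 215 in DSS+UA.

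The score of position along the colon was the mean log2 CPM of 5 Hox genes expressed toward the rectum minus that of 6 expressed toward the caecum. It was 5.53, -3.02 and -1.83 in Con 1 to 3, 3.10, 1.35 and 0.37 in DSS, -4.88, -5.70 and -4.15 in UA+DSS and 4.11, 4.48 and 5.06 in DSS+UA. The UA+DSS and DSS+UA groups lay at opposite ends without overlap with DSS, so that for these groups position and treatment are confounded and their parts cannot be told apart. In DSS against Con, where the scores overlapped, 15 members were called with the score as a covariate, with a log2 fold change of -2.14 for Cox7a1 (SE 0.46, edgeR adjusted p = 0.00935). In UA+DSS against DSS Cox7a1 had 1.81 (SE 0.64, edgeR adjusted p = 0.167) and Cox6a1 0.76 (SE 0.37, edgeR adjusted p = 0.256) with the score. In DSS+UA against DSS Cox6a1 had 1.14 (SE 0.28, edgeR adjusted p = 0.0662) and Atp5g3 0.89 (SE 0.21, edgeR adjusted p = 0.0636).

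Counts of some members are uncertain because other genes share their sequence. For 17 of the 40 tested members, 10% or more of the 50-base stretches of the transcript occur in another gene, mostly a processed pseudogene or an overlapping gene. Among them are Atp5l (84.8%), Cox7c (53.0%), Atp5h (50.5%), Atp5o (50.3%), Uqcrb (43.4%) and Atp5f1 (38.7%). Also among them are Cox5b (25.9%), Cox6c (21.1%), Atp5j (16.3%) and Cox6a1 (12.3%), which were called as lowered by DSS. Of these 17, DSS lowered 7 and DSS+UA raised 11, and of the 23 others DSS lowered 7 and DSS+UA raised 12. The medians were -0.66 in both sets in DSS against Con and 0.93 in both in DSS+UA against DSS. Cox7a1, Cox7a2, Cox8a, Cox6b1, Atp5g3, Uqcrq, Cyc1, Uqcrc1 and Uqcrfs1 share no such stretch.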

How the data were processed

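Reads were mapped by the authors to GRCm38 and counted per gene, with FastQC, HISAT2 and Cuffdiff named in the submitters' processing notes. The deposited values are whole-number counts per Ensembl gene for each library, without normalization. The methods state that Hisat2 gave the read counts. Use of strand, the annotation release and tool versions were not given in the sources used here. Genes were named by GENCODE M21, and 37 genes without a name held 0.0036% of the counts. The labels name Trizol for the RNA and the methods the RNeasy kit.

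edgeR 4.0.16 (R 4.3.3) kept 17658 genes by filterByExpr, which held 99.8% of the counts, scaled them by TMM (0.871 to 1.09) and fitted 1 robust quasi-likelihood model of group to the 12 libraries (biological coefficient of variation 0.352). Its quasi-likelihood test, adjusted by Benjamini-Hochberg over all tested genes, was read at 0.05 in 6 comparisons, and log2 CPM used a prior count of 2. Alternatives were library size, upper-quartile and relative log expression scaling, no filter, at least 10 counts in every library, the replicate number as a block, the position score as a covariate, a fit of the 2 groups, limma-voom (limma 3.58.1), DESeq2 1.42.0 and leaving out each library in turn. Where that left a group with 2 libraries, the spread came from all groups, as it did in the main fit. The filter was applied anew, so that 40 or 41 members were tested. Figures and descriptions used Python 3.11.15, pandas 2.3.3 and numpy 2.4.6.

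The members and all gene lists were chosen with earlier results of these data known. Values per library were given for core members, isoform pairs, alpha, beta and c subunits and members with the smallest p of a complex. They were not given for each of these in every group and comparison, and Cox8b was given as a range. Other named genes were the called members, the smallest p of each list and, picked after their values were seen, further called genes of the lists. Depth gives counting precision only. The p-values of the main fit rest on the spread between libraries within groups, with 3 libraries a group. That spread was pooled over all groups, also those outside a comparison, and drawn toward that of other genes. Where labelled replicate numbers were shared, a block was tried as an alternative.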

Additional observations from a re-analysis of the deposited data

Results flagged for a closer look

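Atp5g3 differed between the groups given UA before and after the start of DSS, with a log2 fold change of -0.67 in UA+DSS against DSS+UA, and each UA+DSS library (498 to 507 CPM) was below each DSS+UA library (742 to 865 CPM). Its edgeR adjusted p of 0.0389 ranged from 0.00307 to 0.492 over the alternatives. Atp5g3 was the only 1 of 40 tested members called, beside 16.8% of all tested genes. Its coding sequence has 423 bases, and all tested protein-coding genes with under 600 bases had a median of -0.34 in this comparison. The position scores of these groups do not overlap, so position and treatment cannot be told apart here.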

How the results depend on the processing

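The number of members called changed with the processing, while the median log2 fold change of the members moved by less than the replicate spread in all settings that kept the 12 libraries, and turned its sign only in UA+DSS against Con, where it was near 0 (0.0040 with no filter and 0.035 with the position score). In DSS against Con the 14 called became 6 with no filter, 9 with the replicate block and 3 in the fit of the 2 groups. In UA+DSS against DSS the 6 became 1 with no filter, 1 with the block, 0 with the position score and 15 by DESeq2. In DSS+UA against DSS the 23 became 14 with library size only, 11 with no filter, and 0 with the block, the position score or the 2-group fit. In DSS+UA against Con the 1 became 0 with library size, upper-quartile factors, no filter, the block, the position score and the 2-group fit. In UA+DSS against DSS+UA the 1 became 0 with no filter, the block or the position score and 2 in the 2-group fit and by DESeq2. Leaving out 1 library gave 2 to 16, 0 to 10, 0 to 28, 0 to 0, 0 to 2 and 0 to 2 calls in the 6 comparisons (DSS against Con, UA+DSS and DSS+UA against DSS, UA+DSS and DSS+UA against Con, and UA+DSS against DSS+UA), and medians of -0.80 to -0.51, 0.43 to 0.73, 0.67 to 1.06, -0.11 to 0.06, 0.06 to 0.51 and -0.46 to -0.07. Signs turned for single members near 0. In DSS against Con, leaving out 1 library gave -0.35 to 0.085 for Atp5a1 and -0.40 to 0.022 for Atp5b, both above 0 without DSS 2. In UA+DSS against DSS, Atp5b had -0.025 with the position score, and Cox6b2 had -0.047 to 0.43, below 0 without UA+DSS 1. The cause of these moves was not tested. The labels give the groups shared replicate numbers, but of 18 same-numbered pairs of libraries 5 had a correlation of deviations over 0.1 (range -0.22 to 0.19) and 5 of 12 libraries matched their own number best, so the numbers were not taken as pairs.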
